A study of Drosophila melanogaster with 16 samples.

Results

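The genes described here encode the subunits of the proteasome, and the data are lists of genomic peaks for Psi, RNA Pol and Myc in *Drosophila* wing imaginal discs, profiled by TaDa (Targeted DamID). Members were chosen by name alone, as every protein-coding gene whose symbol begins with Rpn or Rpt and a digit, or with Prosalpha or Prosbeta. This gave 48 of the 13945 protein-coding genes that Ensembl release 115 places on the chromosome arms of BDGP6, leaving out the Y chromosome because the larvae were female. Of the 48, 14 encode the core particle, 18 the regulatory particle, and 16 are paralogues whose symbol ends in R or T, with or without a digit after it. None of the values below entered this naming rule, although earlier results of these data were known when it was set.

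The proteasome degrades proteins tagged with ubiquitin. Its core particle is a barrel of stacked rings, in which Prosalpha subunits form the outer rings that gate the entry and Prosbeta subunits form the inner rings that carry the protease sites. The regulatory particle caps the barrel: the Rpt subunits are ATPases that unfold the substrate, and the Rpn subunits form the scaffold, the ubiquitin receptors and the lid, which removes the ubiquitin. In *Drosophila* many subunits have a duplicate gene expressed mainly in testis, and most of the R and T paralogues are of this kind.

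In TaDa a Dam methylase fused to a protein marks GATC sites near the places the protein touches, and the marked fragments are sequenced. Wing discs of female larvae expressed, from UAS and under *sd*-GAL4 held back by a temperature-sensitive GAL80, Dam fused to Psi (3 samples), to Polr2F, a subunit shared by the RNA polymerases (RNA Pol, 3 samples), to Myc (3 samples), or Dam alone (7 samples). All groups shared the same regime: eggs laid over at most 4 h at 25°C, 7 days at 18°C, then 24 h of induction at 29°C, with discs taken in the middle of the third instar. Only cells in which *sd* drives GAL4 express the fusions, so a peak is an average over those cells and does not give the number of cells that carry the contact. Psi and RNA Pol share a control: 2 Psi samples and 1 RNA Pol sample were set against Dam-only sample 1, whereas the Myc samples had controls of their own. The authors averaged the 3 samples of each fusion before calling peaks at an FDR of 1%, so none of the values below comes with an error between replicates, and read depth is unknown. The lists hold 1710 Psi, 1568 RNA Pol and 1951 Myc peaks, each with a score that ranks peaks within its own list. Of the wing disc genes *vg*, *nub*, *sd*, *ap* and *wg*, 4 had a Psi peak, 3 an RNA Pol peak and 2 a Myc peak within 1 kb. *wg* had none. Of all protein-coding genes, 7.92%, 13.6% and 19.2% had such a peak. These 5 genes were meant as a check of the tissue label. Their median length was 21324 bp, against 2166 bp for all protein-coding genes, so the counts cannot serve as that check.

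Most proteasome genes had no significant peak in any list. A gene was called bound when a peak overlapped it or lay within 1 kb. By that rule 14 of 48 (29.2%) were bound in at least 1 list, where 25.7% of all protein-coding genes were. Psi peaks lay at 3 members (6.25%, against 7.92% of all protein-coding genes), RNA Pol peaks at 9 (18.8%, against 13.6%) and Myc peaks at 9 (18.8%, against 19.2%). These shares are close to those of all genes, and no test was applied to them, since the lists hold no replicates. All 21 pairs of a member and a peak involved different peaks, and no member had more than 1 peak of the same list.

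Split by kind of member, the counts were small, and no test was applied to them. Core particle genes had 0 Psi, 3 RNA Pol and 3 Myc calls of 14 (0%, 21.4% and 21.4%). Regulatory particle genes had 2 Psi, 5 RNA Pol and 6 Myc calls of 18 (11.1%, 27.8% and 33.3%). With overlap required, RNA Pol and Myc each had 2 calls in either particle. The shares of all protein-coding genes within 1 kb were 7.92% (Psi), 13.6% (RNA Pol) and 19.2% (Myc). Among the R and T paralogues there was 1 gene with both a Psi and an RNA Pol peak nearby, and none of the 16 had a Myc peak. Over the 32 core and regulatory particle genes together, RNA Pol peaks lay at 8 (25.0%, against 13.6%) and Myc peaks at 9 (28.1%, against 19.2%). Both RNA Pol and Myc, which share no control sample, were called at 5 members (*Prosalpha2*, *Rpn9*, *Rpn10*, *Rpn13* and *Rpt2*), or 10.4% of the 48 against 8.47% of all protein-coding genes. Psi and Myc were both called at *Rpn13* alone, 2.08% against 5.29%.

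**Figure D1:**
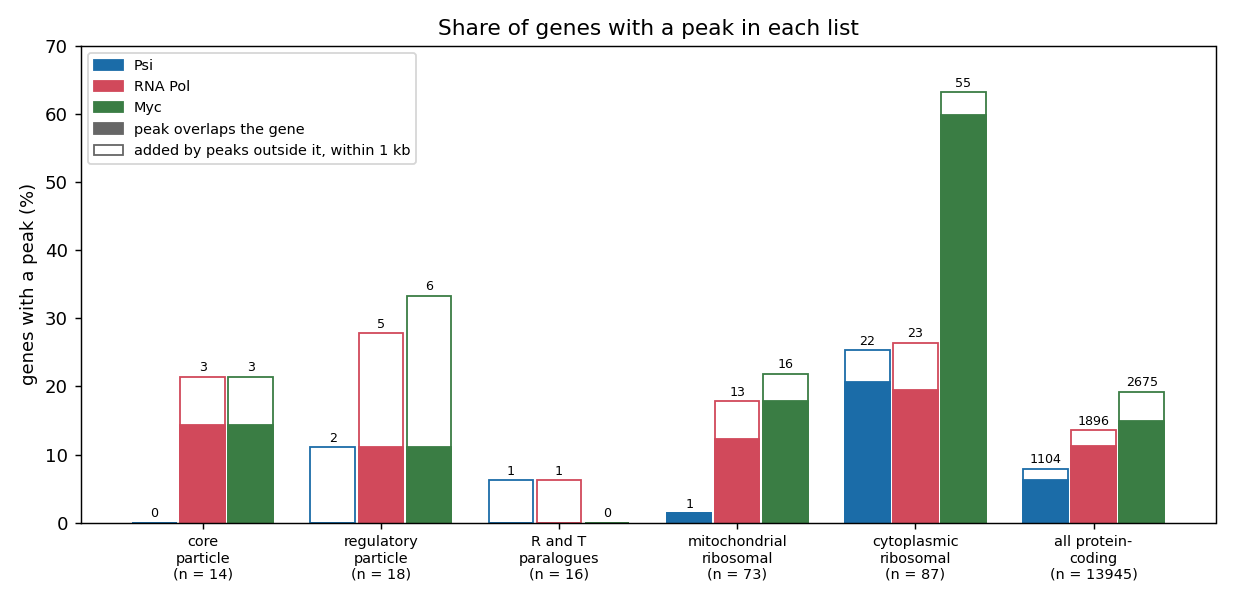
Share of genes with a peak (vertical axis, %) for the core particle, regulatory particle, R and T paralogues, ribosomal protein genes and all protein-coding genes; filled bars count peaks that overlap the gene, open bars add peaks within 1 kb, and the figure over a bar is the number of genes. No filled Psi bar stands over any kind of proteasome gene, while the highest bar is that of Myc at cytoplasmic ribosomal protein genes (55 of 87).

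A peak covered the start site of 5 members, all of them core or regulatory particle genes. The start site is the outermost annotated upstream end of the gene. RNA Pol peaks covered 4 start sites (8.33% of 48, against 6.88% of all protein-coding genes), those of *Prosalpha2*, *Prosbeta3*, *Rpn9* and *Rpt6*. Myc peaks covered 3 (6.25%, against 9.47%), those of *Prosalpha2*, *Rpn9* and *Rpt5*. A Psi peak covered none, against 1.56% of all protein-coding genes. Among protein-coding genes no longer than the longest member (4500 bp) the shares were 4.90% (RNA Pol), 8.14% (Myc) and 0.878% (Psi).

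*Prosalpha2*, a subunit of the outer ring, carried the highest Myc score of any member. The gene (FBgn0086134) lies on the plus strand of chromosome 3R of BDGP6 from 12431321 to 12432556. An RNA Pol peak and a Myc peak had exactly the same ends there, from 12429109 to 12431829, and each covered 41.2% of the gene. The Myc peak scored 5.55 (FDR 3.11e-08), rank 7 of 1951, and the RNA Pol peak scored 1.16 (FDR 2.31e-06), rank 934 of 1568. The order within the lists was thus far apart at the same 2721 bp. This peak also held the start sites of *CG5245*, which occupied 61.6% of it, and of *CG5641*, so its score cannot be assigned to *Prosalpha2* alone. No Psi peak lay nearer to *Prosalpha2* than 8967 bp.

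*Rpn9*, which encodes a lid subunit, was the other member with both RNA Pol and Myc over its start. The gene (FBgn0028691) runs on the minus strand of 3R from 23731375 to 23733462. Its RNA Pol peak, from 23732466 to 23733744, covered 47.7% of the gene with a score of 1.21 (FDR 0.00153), and its Myc peak, from 23732789 to 23733799, covered 32.3% with a score of 1.76 (FDR 0.00482). Of the bases of the RNA Pol peak, 26.0% were coding, 24.8% untranslated exon and 27.2% intron of *Rpn9*. Rank 1809 of 1951 placed the Myc peak near the bottom of its list.

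The remaining start sites lay in a peak of 1 list each. *Rpt5* (FBgn0028684, 3R, plus strand, 23752876 to 23754623), an ATPase of the base, had a Myc peak from 23752357 to 23753197 with a score of 2.87 (FDR 0.00482), which also held the start of *RanBP3* 42 bp upstream. *Rpn9* and *Rpt5* are 19.4 kb apart, and each had a peak of its own. *Prosbeta3* (FBgn0026380, 3R, minus strand, 9005313 to 9006226), an inner ring subunit without a protease site, had an RNA Pol peak from 9005968 to 9006789 with a score of 1.12 (FDR 0.00341). That peak covered 28.3% of the gene and also held the start of *Iru*, which encodes a ubiquitin ligase and is transcribed away from it, 230 bp from the gene. *Rpt6* (FBgn0020369, X, plus strand, 21316052 to 21317663), another ATPase of the base, had an RNA Pol peak from 21314946 to 21316319 with a score of 1.0, the lowest of the 9 (FDR 2.90e-04, rank 1288). *Rpt6* overlaps *CG1801*, which runs on the opposite strand and contains the whole peak, and this was the only peak over a member's start that held no other gene's start.

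The promoters of *Prosalpha2*, *Prosbeta3*, *Rpt5* and *Rpt6* are printed because their start sites lie inside peaks. Each run gives the 250 bases before the start and 50 from it on, 5′ to 3′ on the strand of the gene, read from the RefSeq genome of the same build. Capitals mark GATC, the site that Dam methylates, and the motifs TATCGATA (the DNA replication-related element, bound by Dref) and TGACNNNGC (the core of the sites of Cnc and its small Maf partner), which were searched on both strands together with the E-box CACGTG, the site of Myc and Max.
Prosalpha2 (chromosome 3R): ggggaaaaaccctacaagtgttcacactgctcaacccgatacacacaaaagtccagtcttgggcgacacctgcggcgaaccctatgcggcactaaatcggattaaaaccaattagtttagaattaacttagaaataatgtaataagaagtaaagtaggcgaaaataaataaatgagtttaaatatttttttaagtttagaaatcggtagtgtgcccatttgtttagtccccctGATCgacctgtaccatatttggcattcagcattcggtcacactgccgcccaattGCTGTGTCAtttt
Prosbeta3 (chromosome 3R): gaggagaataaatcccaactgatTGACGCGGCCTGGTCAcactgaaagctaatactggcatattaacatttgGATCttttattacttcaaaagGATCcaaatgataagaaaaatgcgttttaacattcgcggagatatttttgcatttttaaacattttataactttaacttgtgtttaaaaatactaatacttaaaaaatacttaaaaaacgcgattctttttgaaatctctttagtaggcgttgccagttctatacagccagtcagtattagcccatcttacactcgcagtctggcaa
Rpt5 (chromosome 3R): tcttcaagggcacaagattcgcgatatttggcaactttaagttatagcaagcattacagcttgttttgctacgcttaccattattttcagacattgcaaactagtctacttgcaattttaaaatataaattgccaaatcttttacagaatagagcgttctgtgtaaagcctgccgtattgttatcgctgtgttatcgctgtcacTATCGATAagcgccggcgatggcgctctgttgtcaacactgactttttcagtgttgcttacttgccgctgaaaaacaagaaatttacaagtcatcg
Rpt6 (chromosome X): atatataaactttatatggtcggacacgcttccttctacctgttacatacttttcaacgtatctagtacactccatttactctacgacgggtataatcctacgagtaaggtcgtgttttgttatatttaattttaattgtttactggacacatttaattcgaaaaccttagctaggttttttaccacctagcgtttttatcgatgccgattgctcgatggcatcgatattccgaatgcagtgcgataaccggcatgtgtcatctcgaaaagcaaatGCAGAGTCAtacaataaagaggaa

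*Rpt5* holds a single TATCGATA, at -46 to -39 bp from the start. *Prosalpha2* and *Rpt6* each have a single match to TGACNNNGC just inside the transcript, and in *Prosbeta3* a pair of such matches overlap from -227 to -212 bp. No CACGTG is found in these 4 windows. GATC occurs in the windows of *Prosalpha2* and *Prosbeta3* and not in those of *Rpt5* and *Rpt6*, whose peaks therefore reach over the start from flanking GATC sites.

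**Figure D2:**
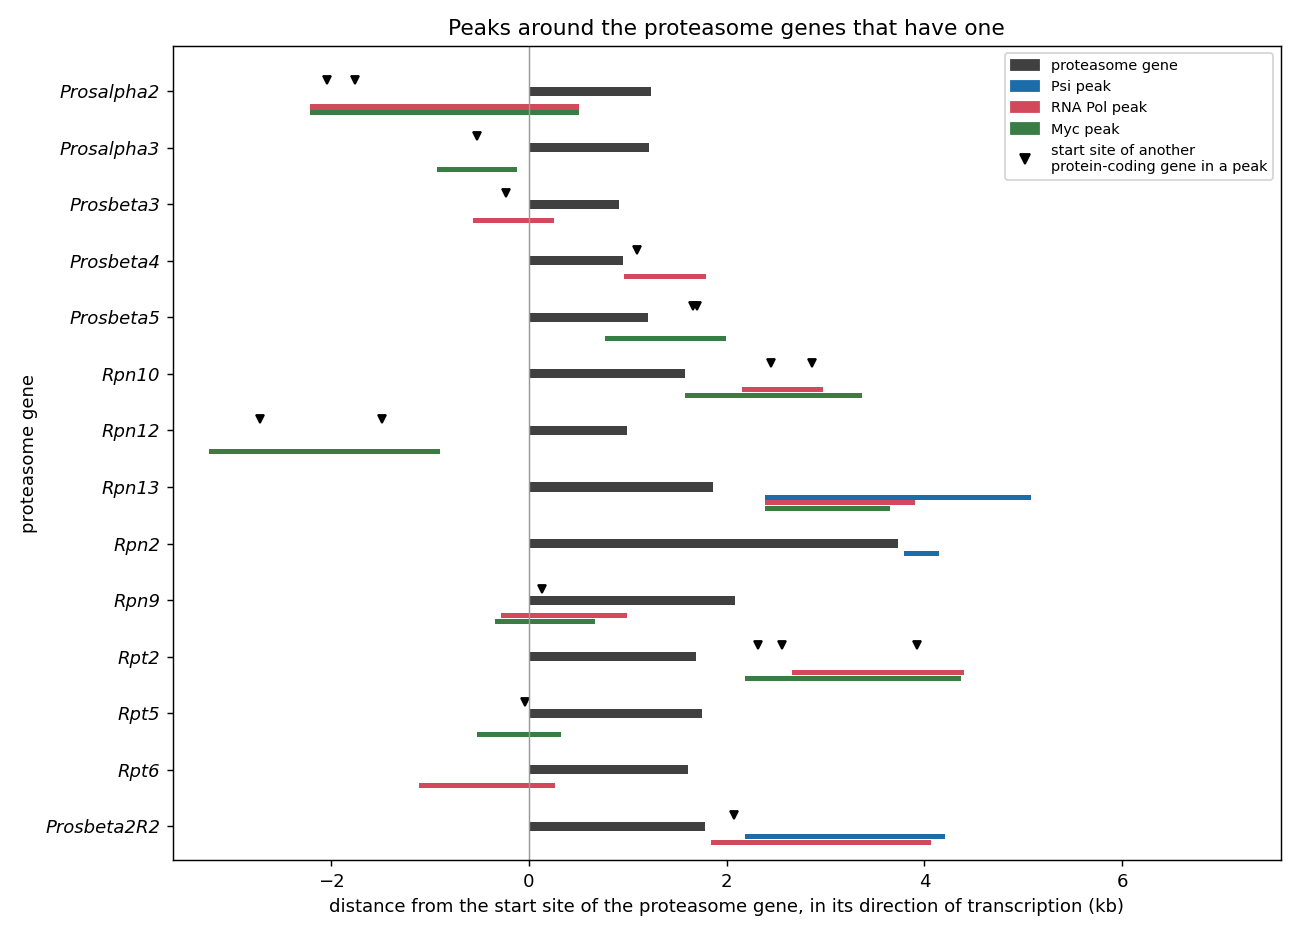
Peaks at the 14 proteasome genes that have one, by distance from the start site of the gene in its direction of transcription (horizontal axis, kb); grey bars are the genes, coloured bars the peaks of each list, and triangles the start sites of other protein-coding genes inside a peak. Peaks reach over the start site of *Prosalpha2*, *Prosbeta3*, *Rpn9*, *Rpt5* and *Rpt6*, and the 3 Psi peaks all lie downstream of the gene.

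Nearly all of these peaks also lay over neighbouring genes. Of the 21 pairs of a member and a peak, 20 involved a peak that also overlapped another protein-coding gene, and in 15 the peak held the start site of such a gene. RNA Pol peaks overlapped 4 members (8.33%, against 11.2% of all protein-coding genes) and Myc peaks also overlapped 4 (8.33%, against 15.0%). In 8 of the 14 bound members no peak of any list overlapped the gene. The counts of 20, 15 and 8 were not made for other genes, so they cannot be read as particular to the members.

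*Prosbeta5*, which carries the chymotrypsin-like protease site, was the only member overlapped at its end and not at its start. The gene (FBgn0029134) lies on the plus strand of chromosome 2R from 10819978 to 10821178, and a Myc peak from 10820746 to 10821976 covered its last 36.1% with a score of 3.07 (FDR 3.14e-07, rank 875). The same peak held the start sites of *Lsm10*, a gene for a component of the U7 snRNP that is transcribed towards *Prosbeta5*, and of the ribosomal protein gene *RpS15Ab*. *Rpn10*, a ubiquitin receptor (3L, plus strand, 21537000 to 21538582), had the highest RNA Pol score of the members and a high Myc score without being overlapped. Its RNA Pol peak scored 1.85 (FDR 0.00167, rank 54) and began 575 bp past the gene, and its Myc peak scored 4.55 (FDR 1.01e-04, rank 74) and began at the base after its end. Both peaks held the divergent starts of *COX8*, a subunit gene of cytochrome c oxidase, and of *VhaM9.7-b*, a subunit gene of the vacuolar proton pump.

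Myc peaks lay upstream of *Rpn12* and *Prosalpha3*. *Rpn12* (3L, plus strand, 16583028 to 16584022), a lid subunit gene, had a Myc peak of score 3.91 (FDR 1.07e-09, rank 307) that ended 898 bp before its start and held the starts of *Smn* and *nxf2*. For *Prosalpha3* (2R, plus strand, 20994900 to 20996118), an outer ring subunit gene, the Myc peak scored 1.61 (FDR 0.00482, rank 1896), ended 124 bp before the start and held the start of *dgt3*, a gene for a subunit of augmin.

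Peaks lay downstream of *Rpt2*, *Prosbeta4* and *Rpn13*. *Rpt2* (3R, minus strand, 23929873 to 23931558), an ATPase gene, had an RNA Pol peak (score 1.4, FDR 3.27e-04) 974 bp beyond its end and a Myc peak (score 1.59, FDR 0.00482) 505 bp beyond it, over *CG43998*, *CG43999* and *CG13601*. *Prosbeta4* (2L, minus strand, 16731180 to 16732133), an inner ring gene, ended 14 bp from an RNA Pol peak (score 1.11, FDR 2.90e-04) that held the start of *CG17996*. *Rpn13* (2R, minus strand, 13958545 to 13960404), the ubiquitin receptor that anchors the deubiquitinase Uch-L5, was the only member with peaks of all 3 lists. All of them ended at the same GATC site 532 bp beyond *Rpn13*, inside *AGO1*, the Argonaute gene of the microRNA pathway. Peaks of all 3 lists thus lay at 2.08% of the 48 members, against 3.69% of all protein-coding genes. Psi and RNA Pol share a control sample, so these calls are not independent.

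**Figure D3:**
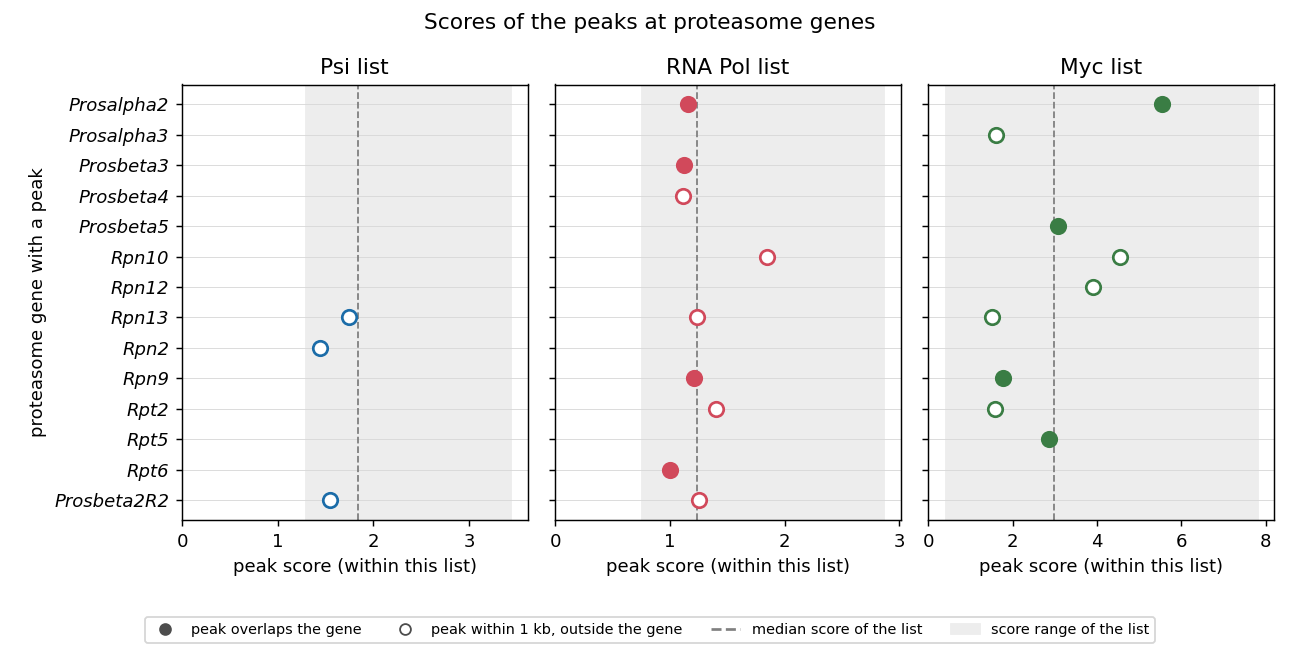
Score of each peak at a proteasome gene (horizontal axis, in the units of each list), with filled points for peaks that overlap the gene and open points for peaks outside it; the grey band is the score range of the list and the dashed line its median. The 3 Psi points are open and lie left of the Psi median, whereas *Prosalpha2*, *Rpn10* and *Rpn12* lie well right of the Myc median.

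Scores at the members were spread over the Myc and RNA Pol lists and lay low in the Psi list. The 9 Myc peaks scored from 1.51 at *Rpn13* to 5.55 at *Prosalpha2*, with a median of 2.87, and the whole Myc list had a median of 2.97. The 9 RNA Pol peaks scored from 1.0 at *Rpt6* to 1.85 at *Rpn10*, with a median of 1.21 beside 1.24 for the list. The 3 Psi peaks scored 1.44 at *Rpn2*, 1.55 at *Prosbeta2R2* and 1.75 at *Rpn13*, all under the list's median of 1.84.

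No Psi peak overlapped any of the 48 members chosen by symbol. Psi peaks overlapped 6.27% of all protein-coding genes, and 2.03% of those no longer than the longest member (4500 bp). No test was applied to this difference. The nearby calls were a peak from 13955322 to 13958013 inside *AGO1* (FDR 2.16e-11, rank 1001 of 1710) for *Rpn13*, a peak from 5215317 to 5217346 inside *cno* (FDR 0.00341, rank 1409) for *Prosbeta2R2*, and a peak of 356 bp for *Rpn2*. *Rpn2* (3R, plus strand, 29153524 to 29157255) encodes the scaffold subunit that holds Rpn13. Its Psi peak, from 29157320 to 29157675 (FDR 0.00341, rank 1604), began 65 bp past the gene and was the only one of the 21 that overlapped no protein-coding gene. Regions short of the FDR are left out of the lists, and a weaker Psi signal on these genes cannot be read from them.

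The 34 members without a peak differed widely in how far they lay from one. Among the 9 core particle genes in no list, the nearest peak of any list was between 2.01 kb (*Prosbeta1*) and 11.0 kb (*Prosalpha4*) away. Among the 10 regulatory particle genes in no list it was between 2.22 kb (*Rpn5*) and 62.1 kb (*Rpn7*) away. *Rpn11*, the deubiquitinase of the lid, lay 36.0 kb and its partner *Rpn8* 24.6 kb from the nearest peak, and *Rpn1*, *Rpn3* and *Rpn6* lay 7.23, 43.3 and 29.6 kb from one. Close to the 1 kb limit, the RNA Pol peak of *Rpt2* at 974 bp and the Myc peak of *Rpn12* at 898 bp fell just inside, and the Myc peak 1250 bp from *Rpt6* fell just outside. The protease genes *Prosbeta1* (caspase-like) and *Prosbeta2* (trypsin-like) were in no list, unlike *Prosbeta5*.

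Core particle genes lay nearest to Myc peaks. Their median distance was 2.76 kb to a Myc peak, 8.23 kb to an RNA Pol peak and 39.7 kb to a Psi peak, and 12 of 14 had a Myc peak within 10 kb, as did 6005 of all 13945 protein-coding genes. For regulatory particle genes the medians were 7.69, 14.1 and 53.1 kb, and for the R and T paralogues 35.5, 40.6 and 64.8 kb. Over all protein-coding genes they were 13.9 kb (Myc), 22.3 kb (RNA Pol) and 35.0 kb (Psi). The order of the lists was the same in each kind of member and in all genes, and only for Psi did the core and regulatory particle genes lie farther away than the median gene. Distances among neighbouring genes are not independent, and these medians are descriptions.

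**Figure D4:**
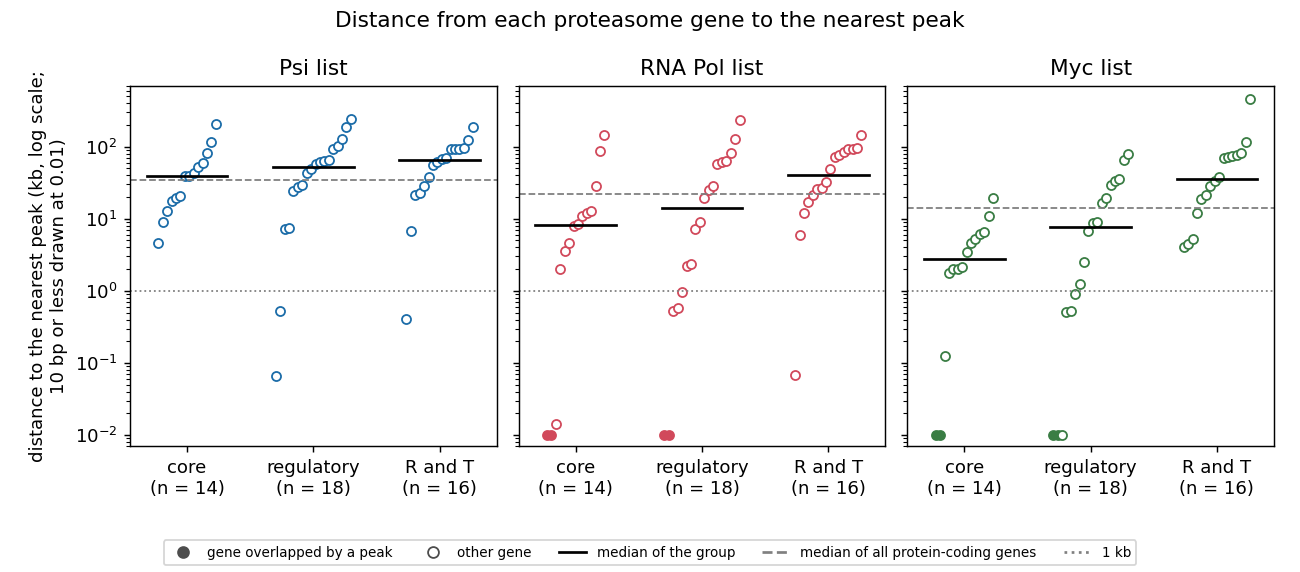
Distance from each proteasome gene to the nearest peak (vertical axis, kb on a log scale, with 10 bp or less drawn at 0.01) in each list; each point is a gene, filled where a peak overlaps it, black bars are medians of the 3 kinds of member, the dashed line is the median of all protein-coding genes and the dotted line 1 kb. Core particle genes lie lowest in the Myc panel (median 2.76 kb) and the R and T paralogues highest (35.5 kb).

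Of the 16 R and T paralogues, 1 (6.25%) was called in at least 1 list, where 25.7% of all protein-coding genes were, and no test was applied to this difference. *Prosbeta2R2* (FBgn0037296, 3R, minus strand, 5217751 to 5219528), a paralogue of the trypsin-like subunit gene, was the one called, with an RNA Pol peak (score 1.25, FDR 2.90e-04) 68 bp and a Psi peak (score 1.55) 405 bp past its end. Both peaks lay over the 5′ part of *cno*, which encodes a linker of adherens junctions to actin, and *Prosbeta2R2* itself was not overlapped. The other 15 lay at least 4.50 kb from any peak. *Prosbeta2R1*, *Prosalpha1R*, *Rpt3R* and *Prosbeta5R1* were nearest, at 4.50, 5.22, 5.97 and 6.75 kb. *Prosalpha4T2*, *Rpt6R*, *Prosalpha6T*, *Prosbeta5R2*, *Rpn12R* and *Prosalpha4T1* followed at 11.9 to 28.2 kb, and *Rpt4R*, *Rpn13R*, *Prosalpha3T*, *Prosbeta4R1* and *Prosbeta4R2* at 49.2 to 77.2 kb. *Prosbeta4R1* and *Prosbeta4R2* are neighbours 1.47 kb apart and share the same surroundings, and *Prosalpha1R* lies 1.74 kb from its parent *Prosalpha1*, which had no peak within 1 kb either.

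Longer genes and genes with more GATC sites offer more room for a peak. Shares were compared under a length limit set by the longest member. GATC sites were only counted, and shares were not compared at a like number of sites. The members were short, from 881 to 4500 bp with a median of 1382 bp, where the median of all protein-coding genes was 2166 bp. Among the 10135 protein-coding genes no longer than the longest member, *Rpn8*, Psi bound 3.56%, RNA Pol 8.72% and Myc 14.8%. Against these genes, the shares of the 48 members (6.25%, 18.8% and 18.8%) were higher in each list, while against all protein-coding genes only the RNA Pol share was. With overlap required, the members were at 0%, 8.33% and 8.33% and the genes no longer than *Rpn8* at 2.03%, 6.31% and 10.7%, so the direction turned for Psi and Myc. Every member held at least 1 GATC site, with a median of 8 in the gene and of 14 with 1 kb on each side. These medians were 7 and 12 for the R and T paralogues, 7 and 13.5 for core particle genes, 11.5 and 19.5 for regulatory particle genes and 10 and 17 for all protein-coding genes, and *Prosbeta4R1* had the fewest in its body, 1.

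The members were also set beside ribosomal protein genes, which are similarly short. Of 87 cytoplasmic ribosomal protein genes chosen by symbol (median 1333 bp), Psi bound 22 (25.3%), RNA Pol 23 (26.4%) and Myc 55 (63.2%), and a Myc peak covered the start site in 43 (49.4%). Of 73 mitochondrial ribosomal protein genes (median 909 bp), Psi bound 1 (1.37%), RNA Pol 13 (17.8%) and Myc 16 (21.9%). The 32 core and regulatory particle genes, at 6.25%, 25.0% and 28.1%, lay below the cytoplasmic ribosomal protein genes in each list, least so for RNA Pol, and above the mitochondrial ones in each list. With overlap required, the RNA Pol shares were 12.5% (core and regulatory particle), 19.5% (cytoplasmic) and 12.3% (mitochondrial). In the same order the Myc shares were 12.5%, 59.8% and 17.8%, and the Psi shares 0%, 20.7% and 1.37%. Myc and Psi at the core and regulatory particle genes then lay below the mitochondrial share. No test was applied to these differences.

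Of the motifs searched, the promoters of core and regulatory particle genes and of the R and T paralogues differed mainly in TATCGATA. TATCGATA was found in 12 of the 32 promoters of core and regulatory particle genes (37.5%), in 0 of the 16 of R and T paralogues and in 9.36% of all 13945 protein-coding promoters of the same length. It was present in 29.9% of cytoplasmic and 20.5% of mitochondrial ribosomal protein promoters. The core particle genes with it were *Prosalpha3*, *Prosalpha5*, *Prosalpha6*, *Prosbeta1*, *Prosbeta2* and *Prosbeta6*, and the regulatory particle genes *Rpn3*, *Rpn7*, *Rpn9*, *Rpn12*, *Rpn13* and *Rpt5*. TGACNNNGC was found in 6 of the 48 promoters (12.5%, against 8.63% of all), 5 of the 32 and 1 of the 16. GATC was found in 37.5% of the 32 and 43.8% of the 16, against 45.2% of all. No test was applied to these shares. The E-box CACGTG was found in 0 of 48, against 4.20% of all, also at the members with a Myc peak over the start. A match is a run of letters and not a measured site, and the absence of one says only that these letters are not in the window.

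The promoters of *Prosalpha6* and *Prosbeta2*, core particle genes without a peak, and of the paralogues *Prosalpha6T* and *Prosbeta2R2* show this contrast in the same format.
Prosalpha6 (chromosome 2L): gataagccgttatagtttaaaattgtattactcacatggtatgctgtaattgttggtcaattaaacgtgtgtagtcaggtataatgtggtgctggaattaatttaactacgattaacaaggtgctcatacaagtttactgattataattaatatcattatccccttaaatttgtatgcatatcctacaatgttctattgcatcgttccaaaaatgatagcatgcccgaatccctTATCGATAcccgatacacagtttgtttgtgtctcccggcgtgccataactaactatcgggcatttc
Prosbeta2 (chromosome 3L): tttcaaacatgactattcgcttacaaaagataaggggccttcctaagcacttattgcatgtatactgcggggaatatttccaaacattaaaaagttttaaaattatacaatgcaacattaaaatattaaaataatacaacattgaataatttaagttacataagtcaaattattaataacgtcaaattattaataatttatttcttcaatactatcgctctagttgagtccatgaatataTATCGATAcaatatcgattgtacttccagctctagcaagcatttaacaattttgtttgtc
Prosalpha6T (chromosome 2L): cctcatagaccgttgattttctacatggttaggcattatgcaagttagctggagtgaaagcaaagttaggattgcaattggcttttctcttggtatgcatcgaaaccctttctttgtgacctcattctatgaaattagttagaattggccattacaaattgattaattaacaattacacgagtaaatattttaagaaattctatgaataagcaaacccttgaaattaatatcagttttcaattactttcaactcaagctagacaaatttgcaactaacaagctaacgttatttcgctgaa
Prosbeta2R2 (chromosome 3R): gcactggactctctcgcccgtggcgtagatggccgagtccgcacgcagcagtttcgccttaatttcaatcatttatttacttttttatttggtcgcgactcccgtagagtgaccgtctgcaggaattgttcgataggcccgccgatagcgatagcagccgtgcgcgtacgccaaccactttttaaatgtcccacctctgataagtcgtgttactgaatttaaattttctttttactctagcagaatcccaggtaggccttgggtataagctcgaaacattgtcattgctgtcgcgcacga

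In the first pair TATCGATA stands at -16 to -9 bp (*Prosalpha6*) and at -10 to -3 bp (*Prosbeta2*). Their paralogues have none of the motifs searched in the window, GATC included.

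The wider ubiquitin pathway was sampled with 30 genes, of which Psi bound 4, RNA Pol 4 and Myc 9 (13.3%, 13.3% and 30.0%, against 7.92%, 13.6% and 19.2% of all protein-coding genes). These genes were longer than the members, with a median of 2772 bp. Among the 4 ubiquitin genes, only *Ubi-p5E*, a polyubiquitin gene, had a peak, a Myc peak 618 bp from it (score 1.85). Among 8 genes of ubiquitin activation and conjugation, the conjugating enzyme gene *eff* was bound by all 3 proteins (Psi 2.06, RNA Pol 1.72 and Myc 3.4 for the highest score in each list). *Ubc4*, another conjugating enzyme gene, had its start site under an RNA Pol peak (1.6) and a Myc peak (4.98, rank 28), which also held the start of *Prps*. A Psi peak (1.68) lay 662 bp from *Ubc4* over *Prps*, so *Ubc4* too was called in all 3 lists. Of all protein-coding genes, 3.69% were called in all 3. *Ubc10*, also a conjugating enzyme gene, had its start under a Myc peak (2.29). The ubiquitin-activating enzyme gene *Uba1* had no peak. Of 7 delivery genes only *Ufd1*, a cofactor of the p97 segregase, was called, by Myc, and the p97 gene *TER94* was not.

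Of 7 proteasome-associated genes, *Sem1*, which encodes the smallest lid subunit and is not a member by its symbol, was the only one with a Psi peak. That peak (score 2.3, rank 124 of 1710) covered the whole gene on 2L from 7063986 to 7064467, including its start, and also overlapped *Mnn1* and *Nuf2*. Myc was called at the deubiquitinase gene *Usp14* (2.26, over its start) and near *PI31* (2.79, 405 bp away), and the assembly factor gene *Pomp*, the activator gene *REG*, *Uch-L5* and *CG8858*, the *Ecm29* gene, had no peak. Among the 4 genes of transcriptional control, *cnc*, whose product is the Nrf-type factor known to regulate proteasome genes, had a Psi peak in its body (1.74). That peak ranked 1017 of 1710 and did not cover the start. *cnc* is 41132 bp long, against a median of 2166 bp for all protein-coding genes, which leaves more room for a peak. *Keap1*, whose product inhibits that of *cnc*, had a Myc peak of 4.82 and an RNA Pol peak of 1.51, both 685 bp away over *Ns1* and *mRpS11*. It also had a lower Myc peak in its body. *Pngl*, a peptide N-glycanase gene, had a Myc peak over its start (2.01) and an RNA Pol peak (1.48) 352 bp away over *Act42A*, and *maf-S* had no peak.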

How the data were processed

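The authors profiled wing discs by TaDa and, with damidseq_pipeline and Bowtie2 on BDGP6, computed the log2 ratio of each fusion to Dam alone, averaged it over 3 samples and ran find_peaks with a 1% FDR limit. For tool versions, none is given in the sources used here. In the deposited peak lists the authors give coordinates, a score and an FDR per peak (the other deposited columns) for regions past the FDR only. How the authors derived the score is not given there, so scores were compared within a list only. Read depth is unknown.

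Samples were grouped by their titles, since the description label of the samples (RNAi or control) disagreed with them. Peaks were matched to protein-coding genes of Ensembl release 115 (BDGP6, annotation version 54) on arms 2L, 2R, 3L, 3R, 4 and X with Python 3.11.15 and numpy 2.4.6, and figures were drawn with matplotlib 3.10.9. The search was tested on simulated data. By rule the text names every member with a peak, every R and T paralogue and every pathway gene with a peak. Other genes named, and the 4 promoters printed for contrast, were chosen after their values were seen. All 30 pathway genes were matched. Members and lists were chosen with earlier results of these data known. Alternatives were overlap only, 2 kb, an FDR of 0.1%, the nearest gene only and a length limit. Some neighbouring genes and 1 promoter are not reported here.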

Additional observations from a re-analysis of the deposited data

How the results depend on the processing

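With overlap required, Psi was called at 0, RNA Pol at 4 and Myc at 4 of the 48 members. The shares were 0%, 8.33% and 8.33%, against 6.27%, 11.2% and 15.0% of all protein-coding genes. Regulatory particle genes then had 0 Psi, 2 RNA Pol and 2 Myc calls, R and T paralogues had 0 Psi and 0 RNA Pol calls, and 0 members had Psi with RNA Pol, 2 RNA Pol with Myc and 0 Psi with Myc. With each peak counted only for the gene it overlaps or the nearest one, the members had 1 Psi, 4 RNA Pol and 4 Myc calls. The shares were 2.08%, 8.33% and 8.33%, against 6.76%, 11.4% and 15.5% of all protein-coding genes. Regulatory particle genes then had 1, 2 and 2, R and T paralogues had 0 Psi and 0 RNA Pol calls, and the pairs numbered 0, 2 and 0. At an FDR of 0.1% Psi remained at 1, RNA Pol at 6 and Myc at 4 members. The shares were 2.08%, 12.5% and 8.33%, against 5.90%, 8.90% and 12.6% of all protein-coding genes. Regulatory particle genes had 1 Psi, 3 RNA Pol and 2 Myc calls, R and T paralogues had 0 Psi calls, and the pairs numbered 1, 1 and 0. All protein-coding genes then had 1241 RNA Pol and 1764 Myc calls. Within 2 kb, Psi was called at 3, RNA Pol at 9 and Myc at 12 members. The shares were 6.25%, 18.8% and 25.0%, against 9.26%, 15.9% and 22.7% of all protein-coding genes. Myc was then called at 5 core particle genes, and 8 members had both RNA Pol and Myc. Pairs were not counted over all protein-coding genes under these alternatives. Among protein-coding genes no longer than the longest member, Psi was called at 361 and RNA Pol at 884. The causes of these changes were not tested beyond the construction of each alternative. The calls at 1 kb thus rest largely on peaks outside the genes.

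No paired analysis was possible because the peak lists are averages over the 3 samples of a fusion and no column carries a replicate number. For the same reason leaving out each replicate in turn was not run. Depth and signal below the FDR are unknown, so a gene without a peak cannot be called unbound.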
